A study of Mus musculus with 6 samples.

Results

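Neuropeptide Y (NPY) is a peptide that sympathetic neurons store with noradrenaline in large dense-core vesicles and release during strong firing. It acts on G protein-coupled Y receptors that couple to inhibitory G proteins. The Y1 receptor is known from vascular smooth muscle, where it constricts and strengthens the response to noradrenaline, the Y2 receptor from nerve endings, where it restrains transmitter release, and the Y5 receptor mainly from the brain. The surface peptidase DPP4 removes the first residues of NPY and so turns it from a Y1 agonist into a fragment that acts on Y2 and Y5. The genes described here are those of the peptide (Npy), of these receptors (Npy1r, Npy2r, Npy5r) and of the peptidase (Dpp4). They were taken by name: every probe set whose platform annotation gave exactly 1 gene symbol, with that symbol among the 5. This gave 10 probe sets, 1 for Npy, 2 for Npy1r, 1 for Npy2r, 2 for Npy5r and 4 for Dpp4, for 5 of the 18193 genes so annotated.

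The samples were stellate ganglia, sympathetic ganglia at the base of the neck that innervate the heart, from male C57/Bl6 mice. In 3 mice the transverse aorta had been constricted (TAC), which loads the left ventricle with pressure, and 3 mice had had a sham operation. Tissue was taken 8 weeks after surgery, the total RNA of both ganglia of an animal went onto 1 Affymetrix GeneChip Mouse Genome array, and the labels state no age. The arrays carry the letters A to C within each group, and values are given in that order throughout. Values are log2 of the deposited intensities, and a probe set was tested if its mean over the 6 arrays was at least 4, a floor below which it is called dim here. Array values correlated at 0.98 to 0.994 between animals over the 17550 tested probe sets, and TAC B had the lowest mean correlation with the others (0.984). All 20 sympathetic neuron markers on the array lay above the floor. Brown fat transcripts summed to 410.8 to 480.6 linear units on 4 arrays, 736.3 on TAC B and 1332 on sham C. White fat transcripts summed to 1318 to 1834 on the same 4 arrays, 4463 on TAC B and 6882 on sham C. Skeletal muscle transcripts summed to 670.9, 77.48 and 1287 in sham and to 256.3, 96.01 and 90.88 in TAC.

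Of the 5 genes, 3 had a probe set above the floor: Npy, Npy1r and Npy5r. Npy, whose probe set gave a signal far above the floor, was 1.70-fold brighter after TAC. Npy1r was dimmer by 0.33 on the log2 scale with overlapping groups, and Npy5r differed by 0.04. Npy2r and Dpp4 stayed under the floor on all 6 arrays. In limma's fit over all probe sets, 0 of the 3 tested members had an adjusted p under 0.05, and neither had any other probe set (0% of 17550). At an unadjusted p under 0.05 there were 1594 probe sets, and Npy was the only member among them.

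**Figure D1:**
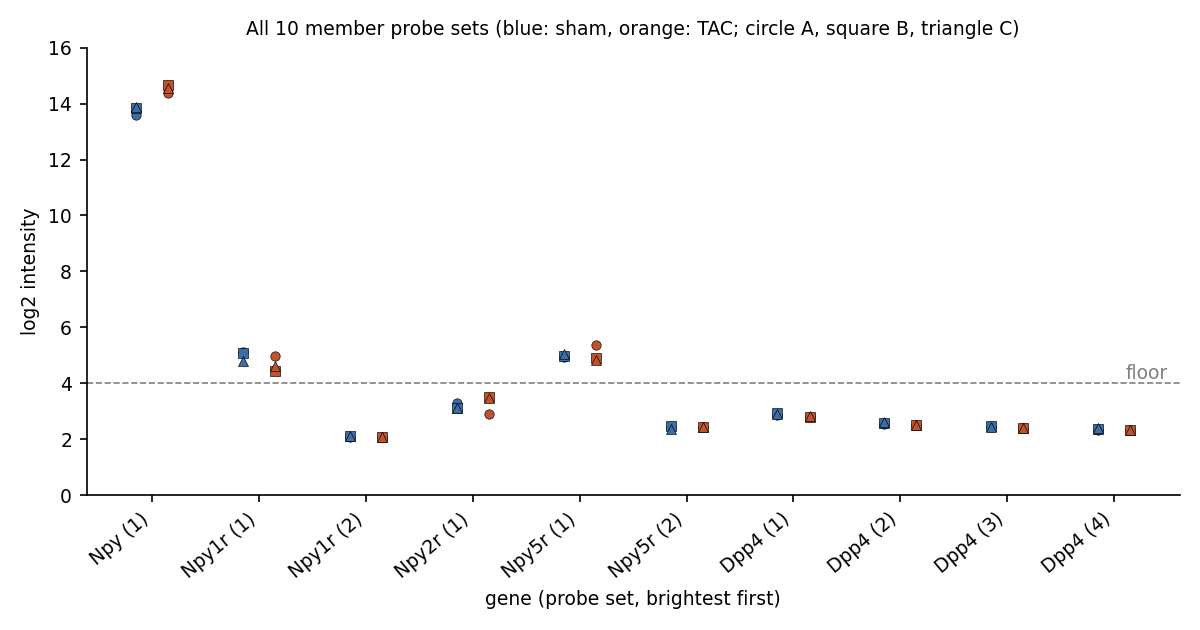
Log2 intensity of each of the 10 member probe sets on each array, blue for sham and orange for TAC, with the probe sets of a gene ordered from the brightest and the dashed line at the floor of 4. Npy lies between 13.61 and 14.65, 1 probe set each of Npy1r and Npy5r between 4.43 and 5.36, and the remaining 7 probe sets below the floor.

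Npy read 13.61, 13.83 and 13.87 in the sham animals, and 14.38, 14.65 and 14.57 after TAC. Every TAC array lay above every sham array, and the gap between the groups was wider than the range within either of them. The means were 13.77 ± 0.14 in sham and 14.53 ± 0.14 in TAC (SD, n = 3). The log2 difference was 0.77 (SE 0.11, 95% interval 0.50 to 1.03), a fold of 1.70 with an interval of 1.41 to 2.05. The limma adjusted p was 0.512, and the exact two-sided permutation test over the 6 arrays gave p = 0.1, the smallest that 3 against 3 allows. Npy ranked 9th of the 17550 tested probe sets by unadjusted p. Among the tested members, 1 of 3 had every TAC array above every sham array, against 9.02% of all tested probe sets, and 0 of 3 had every TAC array below, against 8.85%.

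On the linear scale the Npy intensities were 12492, 14564 and 14961 in sham and 21374, 25720 and 24332 in TAC. The deposited table carries no saturation flag, so whether the brightest spots were compressed was not tested. Probe sets this bright otherwise differed little between the groups. Of the 245 probe sets with a mean log2 of at least 13, a limit chosen after the values were seen, Npy alone was higher by 0.77 or more. The next were the mitochondrial gene ND5 at 0.39, the malate dehydrogenase gene Mdh1 at 0.33, secretogranin II (Scg2) at 0.31 and tyrosine hydroxylase (Th) at 0.24, and the median was -0.0017. This count depends on where the limit is set: the galanin gene Gal, just under it with a mean of 12.94, was higher by 1.05.

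**Figure D2:**
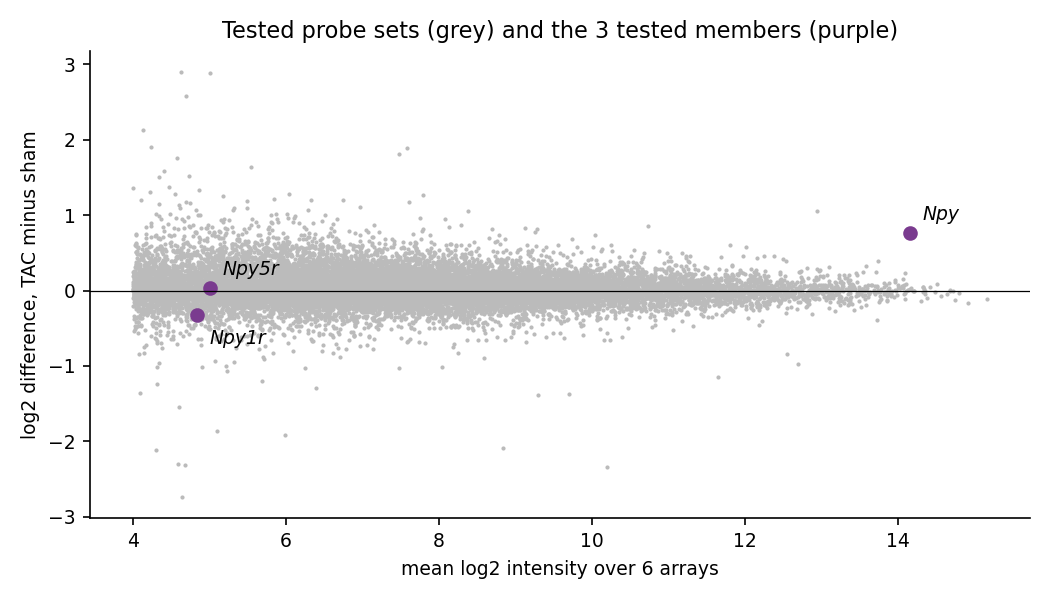
Log2 difference (TAC minus sham) of the 17550 tested probe sets in grey against their mean log2 intensity over the 6 arrays, with Npy, Npy1r and Npy5r in purple. Npy stands apart at the bright end at 14.15 and 0.77, and the receptors lie inside the cloud at the dim end.

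In whole ganglia, more neurons and more RNA per neuron cannot be told apart. Npy was also set against other neuronal transcripts of the same array, which places its change beside theirs and does not separate these cases. The offset between probe sets has no meaning of its own, and only its shift between the groups is read. Relative to the mean of 8 genes of noradrenaline synthesis and storage, Npy stood at 1.02, 1.21 and 1.25 in sham animals, compared with 1.68, 1.91 and 1.85 after TAC. The groups did not overlap, and the shift was 0.65 on the log2 scale, or 1.57-fold (exact permutation p = 0.1, the smallest possible). The mean of those 8 genes itself was 0.11 higher in TAC. Among the 8, Slc18a1, higher by 0.50, is also on the list of chromaffin cell markers given below. Relative to the mean of 20 sympathetic neuron markers, Npy stood at 1.81, 2.02 and 2.11 in sham and at 2.57, 2.998 and 2.75 in TAC, again without overlap. That shift was 0.80, or 1.74-fold (exact permutation p = 0.1), and the mean of the marker list itself was lower in TAC by 0.03. Among the 20, Insm1 differed most, at -0.94, and at -0.46 without TAC B. With a floor of 6, which leaves Insm1 out, the shift of Npy against the markers was 0.75.

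**Figure D3:**
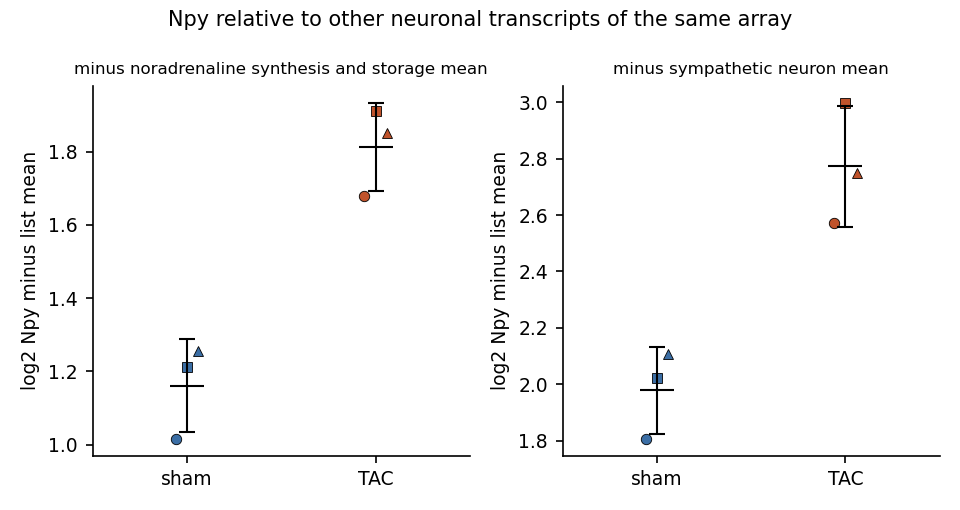
Log2 intensity of Npy minus the mean log2 intensity of the noradrenaline list (left) and of the sympathetic neuron list (right) on each array, with circle, square and triangle for animals A, B and C. Bars give the mean ± SD of 3 animals, and in both panels the TAC arrays lie above the sham arrays.

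Chromaffin cells, the adrenaline-producing relatives of sympathetic neurons, also make NPY. Of the 5 chromaffin markers on the array 4 were tested, and all 4 had a higher TAC mean, with a median of 0.31. Among all tested genes 55.0% had a higher TAC mean, the share to set beside such counts here and below. Their summed signal was 6129 to 6413 in sham and 7549 to 8545 in TAC. The vesicular monoamine transporter gene Slc18a1 was higher by 0.50 (95% interval 0.25 to 0.76) and Chgb, the chromogranin B gene, which neurons express too and which gave most of the sum, by 0.46. In both, every TAC array lay above every sham array, against 9.02% of all tested probe sets. Chga, the chromogranin A gene, was higher by 0.15 with overlapping groups. The brightest probe set of Pnmt, the gene of the adrenaline-forming enzyme, also had overlapping groups, with means of 5.98 ± 0.11 for sham and 5.99 ± 0.04 for TAC (SD, n = 3). The fifth marker, Penk, was dim. The part of chromaffin cells in the Npy result was not tested. Satellite glia markers summed to 29070, 26550 and 27040 in sham and to 25870, 19740 and 24680 in TAC. Every TAC array thus lay below every sham array in this sum. Of the 8 glia markers tested, 3 had a higher TAC mean and 5 a lower one. The part of glial content in the Npy result was not tested either. Npy was highest on TAC B, where the glia sum was lowest. Without TAC B the Npy difference was 0.71, and with sham C and TAC B both left out it was 0.76.

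To show what lies upstream of Npy, the 250 bases before the Npy start site are given from RefSeq (GRCm38.p6, chr6:49822460-49822709, plus strand). They were searched on both strands, with no mismatch, for the cAMP response element TGACGTCA, the GC box GGGCGG, the TATA box TATAAA and the E-box CACGTG, and matches are in capitals.
Npy: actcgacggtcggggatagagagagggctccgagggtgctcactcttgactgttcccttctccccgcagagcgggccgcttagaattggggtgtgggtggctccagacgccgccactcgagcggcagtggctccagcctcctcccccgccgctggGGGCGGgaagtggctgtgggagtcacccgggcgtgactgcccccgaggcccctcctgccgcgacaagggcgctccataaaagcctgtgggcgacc
The window holds 69.2% G and C and 1 GC box, which begins 95 bases before the start, and none of the other 3 motifs. A GC box stood in 32.7% of 32851 RefSeq windows of the same length, a TATA box in 12.4%, an E-box in 6.02% and a cAMP response element in 1.55%. None of the 5 genes had a cAMP response element in its window. The Npy2r window had 1 GC box, the Npy5r window 1 E-box and the Dpp4 window 1 TATA box, and the Npy1r window held none of the 4 motifs.

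The same search was made for 6 genes picked, after their values were seen, for being higher on the TAC arrays: the 4 neuropeptide precursors of smallest p in the comparison, Th and the prohormone convertase gene Pcsk1. Other genes with every TAC array above every sham array, among them Slc18a1, Slc18a2, Chgb, Qpct and Scg5, were not searched. The letters of the cAMP response element, on which the factor CREB binds, were found in 4 of these 6 windows. With genes picked in this way, no share among genes higher in TAC is read from that count. They are shown with 20 bases on either side and the motif in capitals, on the strand of the gene.
Sst: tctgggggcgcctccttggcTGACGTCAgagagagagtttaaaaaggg
Cartpt: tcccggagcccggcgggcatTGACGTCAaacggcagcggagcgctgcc
Th: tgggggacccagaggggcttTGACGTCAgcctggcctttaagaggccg
Pcsk1: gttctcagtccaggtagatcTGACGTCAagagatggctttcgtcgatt
In GRCm38.p6 these lie at chr16:23890865-23890912, chr13:99900768-99900815 and chr7:142900013-142900060 on the minus strand and chr13:75089759-75089806 on the plus strand. The motif begins 48, 112, 45 and 78 bases before the start of Sst, Cartpt, Th and Pcsk1. The windows of Gal and Vip, like that of Npy, did not hold it. A match is of letters only, its absence says nothing beyond this window, and binding was not measured.

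The Y1 receptor gene Npy1r read 5.11, 5.09 and 4.78 in the sham animals, and 4.96, 4.43 and 4.62 after TAC. TAC A lay inside the sham range, and TAC B and TAC C lay below every sham array. The means were 4.99 ± 0.18 in sham and 4.67 ± 0.27 in TAC (SD, n = 3), a log2 difference of -0.33 (SE 0.16, 95% interval -0.72 to 0.07). As a fold the interval ran from 0.61 to 1.05, which includes a fold of 1. The limma adjusted p was 0.567 and the exact permutation p was 0.2. With single arrays left out, the difference was lowest at -0.47 without TAC A and nearest to zero at -0.20 without TAC B. The second Npy1r probe set was dim at 2.07 to 2.13 and gives no level.

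Since the Y1 receptor is known from vessels, the vascular markers are given beside it. Of 8 mural cell markers 5 were tested, 4 with a higher TAC mean and 1 with a lower one. Their summed signal was 1964 to 2039 in sham and 2100 to 2922 in TAC, and Myh11, Des and Kcnj8 were dim. Most of that sum came from Rgs5, with a sham mean of 10.5 against 4.99 to 7.77 for the other tested markers. Rgs5 was at 0.29 and the marker with the lower TAC mean, Cspg4, at -0.42. Acta2, at 0.07, was at -0.245 without TAC B. Endothelial markers summed to 138.7 to 164.8 in sham and 142.1 to 181 in TAC, with 4 of 8 above the floor and Pecam1, Cdh5, Kdr and Tek dim. The part of vessel content in the Npy1r values was not tested.

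Npy5r, the Y5 receptor gene, read 4.95, 4.99 and 5.03 in the sham animals, and 5.36, 4.90 and 4.83 after TAC. TAC A lay above every sham array, and the other TAC arrays lay below every sham array. The means were 4.99 ± 0.04 and 5.03 ± 0.29 (SD, n = 3), and the log2 difference was 0.04 (SE 0.15, 95% interval -0.32 to 0.40, limma adjusted p = 0.939). The interval spans folds from 0.80 to 1.32. The sign of this difference was not stable. It was -0.13 without TAC A, -0.03 after quantile normalization, -0.0058 with each array centred on its median and -0.0030 with array weights. The spread between animals was wider after TAC, with an SD of 0.29 against 0.04, which rests on TAC A and was not tested. The second Npy5r probe set was dim at 2.38 to 2.47. Npy1r and Npy5r are next to each other on chromosome 8 of the RefSeq annotation and are transcribed from opposite strands, away from each other.

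**Figure D4:**
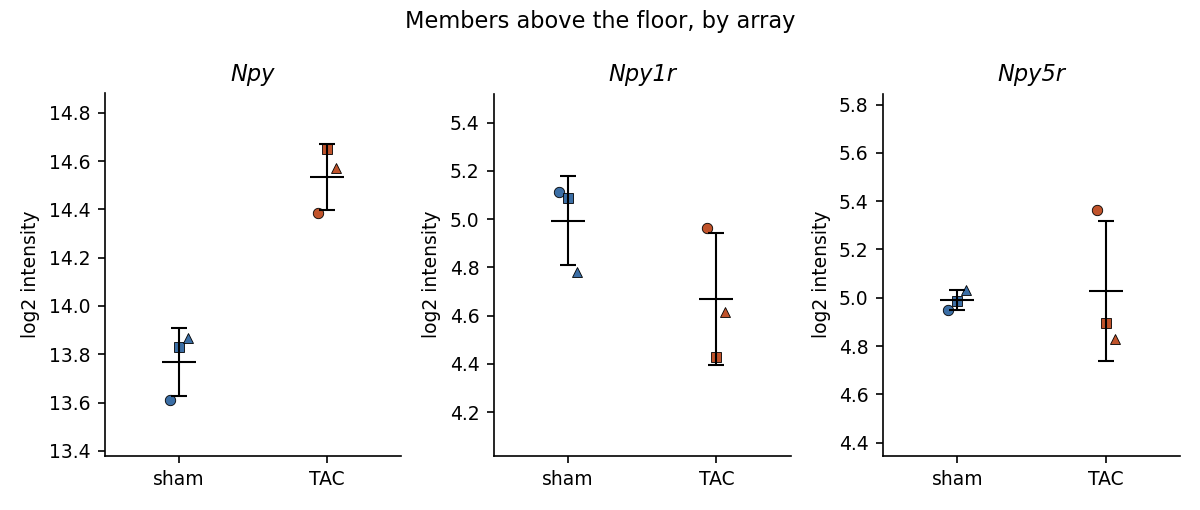
Log2 intensity of Npy, Npy1r and Npy5r on each array, with circle, square and triangle for animals A, B and C and bars for the mean ± SD of 3 animals. The vertical axes span the same number of log2 units, and the groups are apart for Npy and overlap for both receptors.

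Npy2r, the gene of the presynaptic Y2 receptor, had 1 probe set, which read 3.31, 3.11 and 3.12 in the sham animals, and 2.91, 3.50 and 3.47 after TAC. TAC B and TAC C were above every sham array and TAC A below, and all 6 values were under the floor. A dim value does not show that the receptor is absent, and no difference is read from it.

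Dpp4 had 4 probe sets, all dim, with means of 2.85, 2.54, 2.41 and 2.33. In all 4 the 3 TAC arrays lay below the 3 sham arrays, by 0.09, 0.07, 0.06 and 0.04 on the log2 scale. The brightest read 2.85, 2.93 and 2.90 in the sham animals, and 2.80, 2.79 and 2.83 after TAC. Such a shift was general among dim probe sets: in 71.6% of the 27487 probe sets under the floor every TAC array lay below every sham array, with a median difference of -0.04. Nothing is therefore read from the Dpp4 values. DPP4 is also the T-cell surface antigen CD26 and a marker of some fibroblasts. The 6 T-cell markers on the array were all dim, with sums of 44.2 to 59.5 in sham and 43.3 to 44.4 in TAC. Of 9 fibroblast markers on the array 7 were tested, 6 of them lower and 1 higher in TAC, with sums of 8391 to 8737 in sham and 7398 to 10150 in TAC, and Pi16 and Dpt were dim.

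The remaining genes of the family were dim as well. Pyy and Ppy, the genes of the gut and pancreatic relatives of NPY, measured 3.23 to 3.27 and 2.22 to 2.27 over the 6 arrays. Npy4r, the gene of the receptor preferred by pancreatic polypeptide, measured 1.87 to 1.91, and the brighter Npy6r probe set 2.60 to 2.70. The ganglion thus gave a signal above the floor for 1 of the 3 peptides of the family and for 2 of the 5 receptor genes.

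ProNPY is cut by prohormone convertases, trimmed by carboxypeptidase E and amidated at its C terminus by PAM. A list of 9 genes of peptide precursor processing was set beside Npy, 1 of which (Qpct) serves a step that NPY does not undergo. Of these, 8 were found on the array by symbol and 7 were tested, 5 with a higher and 2 with a lower TAC mean. The share higher over all tested genes was 55.0%. The median log2 difference was 0.24, against 0.02 over all 9955 tested genes, with 0 genes passing the limma test. At an unadjusted p under 0.05 there were 3 of 7, all higher, against 5.43% of all tested genes higher and 3.32% lower. Qpct was among these 3. Without Qpct there were 4 higher and 2 lower, with a median of 0.22. Without TAC B the counts over all 7 were 4 higher and 3 lower and the median was 0.18.

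Pcsk1, the convertase gene that makes the first cut in many precursors, measured 8.24, 8.44 and 8.17 in sham and 8.82, 9.61 and 8.84 after TAC, a log2 difference of 0.81 (SE 0.22). Qpct, whose enzyme closes N-terminal glutamine into a ring, measured 5.99, 5.67 and 5.78 in sham and 6.07, 6.59 and 6.46 in TAC, a difference of 0.56 (SE 0.16). Scg5, the gene of a convertase chaperone, was higher by 0.44 (SE 0.15) and Cpe, the carboxypeptidase E gene, by 0.21 (SE 0.09). In these 4 of the 7 tested genes every TAC array lay above every sham array, against 9.02% of all tested probe sets. The limma adjusted p was 0.516 for Pcsk1 and Qpct, 0.542 for Scg5 and 0.553 for Cpe, whose difference was 0.14 without sham B. Without TAC B the difference was 0.55 for Pcsk1, 0.46 for Qpct and 0.30 for Scg5. The cathepsin L gene Ctsl, at 0.24, had 1 high array, TAC B at 12.74 against 11.96 to 12.07 on the others, and without it the difference was -0.0050. Furin at -0.07 and the convertase inhibitor gene Pcsk1n at -0.07 overlapped. Pam, dim by its mean, read 3.74 to 3.85 on 5 arrays and 4.41 on TAC C.

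Of 15 genes listed as DPP4 relatives or as other peptidases, 8 were tested. Whether the products of these genes act on NPY was not measured. A higher TAC mean was found in 5 and a lower one in 3, against 55.0% higher over all tested genes, with a median of 0.01 and 0 called. The list includes Dpp6 and Dpp10, family members without peptidase activity, of which Dpp6 was tested, at 0.08. Without them there were 4 higher and 3 lower, with a median of 0.01. The 4 of smallest p were Prcp, a lysosomal prolylcarboxypeptidase gene, at 0.41, prolyl endopeptidase (Prep) at -0.15, Dpp8 at -0.20 and Dpp7 at -0.21. Without TAC B, Prep was at -0.08 and both Dpp8 and Dpp7 at -0.06, and Prcp was at 0.23 without sham C. For Prep and Dpp8 another tested probe set had the opposite sign, at 0.10 and 0.06. Xpnpep1, the cytosolic aminopeptidase P gene, was at 0.06. The surface peptidase genes Fap, Mme, Anpep, Xpnpep2, Mep1a and Mep1b and the related Dpp10 were dim.

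Downstream of the Y receptors, 13 of 16 genes of inhibitory G proteins, adenylyl cyclases and channels were tested, with 6 TAC means higher, 7 lower, 0 called and a median of -0.02. The sign of this median turned without TAC B, where it was 0.0015. The smallest p belonged to Adcy1, an adenylyl cyclase gene, which measured 8.31, 8.46 and 8.23 in sham and 8.50, 8.61 and 8.65 in TAC (difference 0.26, SE 0.09, limma adjusted p = 0.542). Cacna1b, the gene of the N-type calcium channel through which Y2 receptors restrain transmitter release, was at -0.27, Adcy6 at -0.20 and the inhibitory G protein gene Gnai3 at 0.08. Without TAC B, Cacna1b was at -0.11 and Adcy6 at -0.09, and Adcy6 was at -0.08 without sham A and Gnai3 at 0.04 without sham C. Kcnj5, Kcnj6 and Kcnj9, of the G protein-gated potassium channels, were dim, while Kcnj3 was at 0.0024.

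The transcripts of noradrenaline handling, with which NPY is released, showed smaller differences than Npy. All 8 listed genes were tested, with 5 TAC means higher and 3 lower, against 55.0% higher over all tested genes. None was called, and the median was 0.02, which was 0.0061 without TAC B. At an unadjusted p under 0.05 there were 3 of 8, all higher, against 5.43% of all tested genes. The same 3, Slc18a1, Slc18a2 and Th, had every TAC array above every sham array, against 9.02% of all tested probe sets. The vesicular transporter genes Slc18a1 and Slc18a2 were at 0.50 and 0.29, Th at 0.24 and the noradrenaline transporter gene Slc6a2 at -0.10, where other tested Slc6a2 probe sets ran from -0.37 to 0.19. Without sham B the Slc6a2 difference was -0.02, and without TAC B it was -0.06, while it was -0.17 without sham A. The 95% interval of Npy (0.50 to 1.03) lay above those of Th (0.06 to 0.43), Dbh (-0.18 to 0.24), Ddc (-0.20 to 0.16) and Slc6a2 (-0.36 to 0.15), and it overlapped those of Slc18a1 (0.25 to 0.76) and Slc18a2 (0.04 to 0.55).

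**Figure D5:**
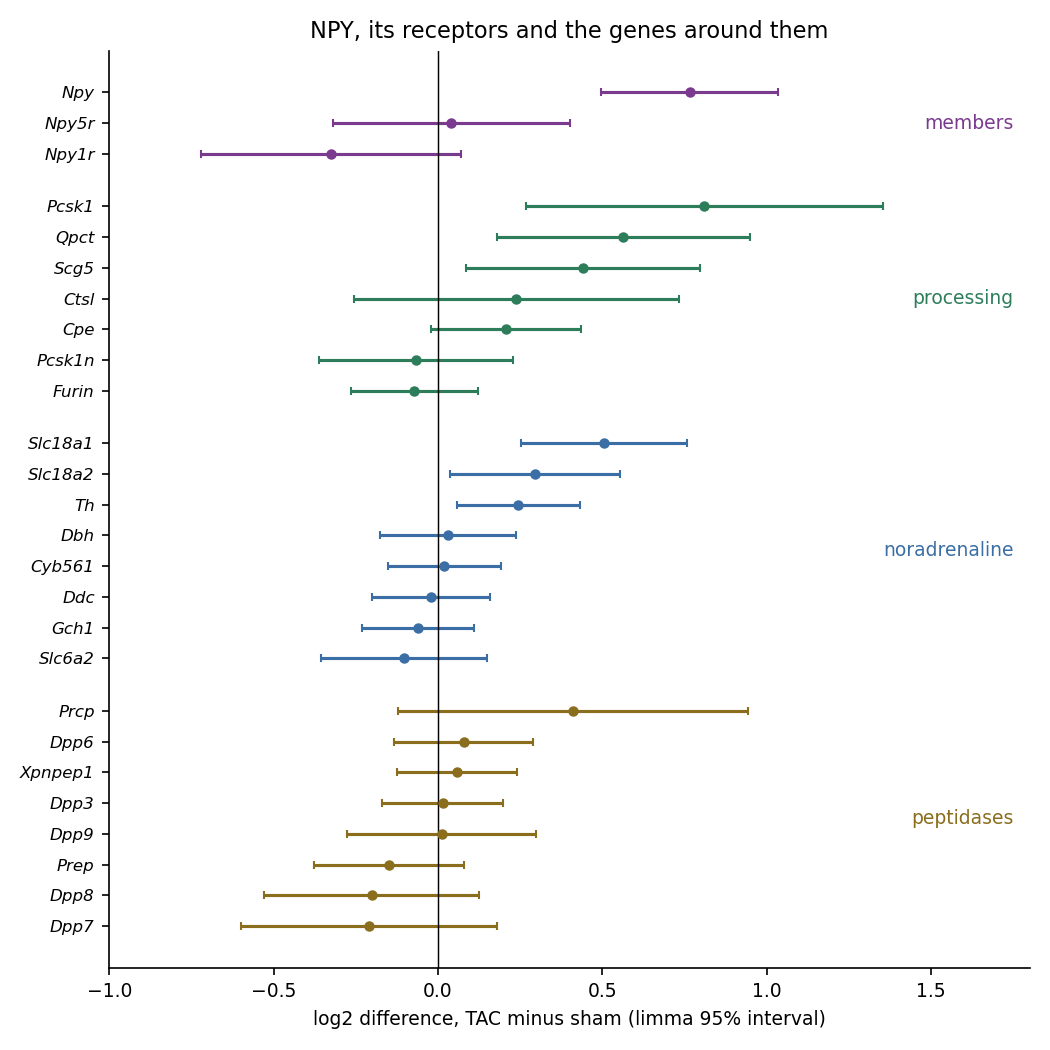
Log2 difference (TAC minus sham) with limma's 95% interval, from 3 against 3 arrays, for the brightest tested probe set of each member and of the genes for precursor processing, noradrenaline synthesis and storage, and peptidases. Npy at 0.77 and Pcsk1 at 0.81 lie farthest to the right, and Npy1r at -0.33 farthest to the left.

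Other peptides and their receptors are given beside Npy and Npy1r. Of 17 other precursors listed 5 were tested and all 5 had a higher TAC mean, with a median of 1.05 (0.80 without TAC B) and 0 called. Sst, the somatostatin gene, had a sham mean of 3.56, under the floor, and was tested only through its TAC mean of 6.45, so it had to be higher. Without it the median of the remaining 4 was 0.81. Gal was at 1.05 and Vip at 0.57, beside Sst at 2.89 and Cartpt at 1.89. Of 17 receptors of other peptides 5 were tested, with 1 TAC mean higher, 4 lower, 0 called and a median of -0.10; without TAC B there were 2 higher and 3 lower. The somatostatin receptor gene Sstr2 read 5.83, 5.61 and 5.46 in sham and 5.40, 4.77 and 4.77 after TAC, a difference of -0.65 (SE 0.20, limma adjusted p = 0.516), and its groups did not overlap. Oprl1, the nociceptin receptor gene, was at -0.18 (0.14 in another tested probe set), Ramp1 at -0.10 and Calcrl, the CGRP receptor gene, at 0.26. Oprl1 was at -0.08 without sham A and -0.10 without TAC B, and Calcrl at -0.04 without sham B and 0.63 without sham A. Whether precursors and receptors as groups differ in direction was not tested.

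The genes whose values followed each tested member most closely over the 6 arrays were found by Pearson correlation across the 9954 other tested genes, with no test. With so few arrays, of which 3 share each operation, high correlations are common. For Npy these were Fxyd5 (r = 0.991, difference 0.64), Kdm5c (r = 0.990, 0.09), Ptprn (r = 0.9895, 0.41), Gga2 (r = 0.989, 0.24) and Lgals8 (r = 0.987, 0.32). Ptprn encodes a membrane protein of dense-core vesicles, and Fxyd5 a regulator of the sodium pump. For Npy1r they were Btaf1 (r = 0.997, difference -0.40), Atp11a (r = 0.995, -0.10), Slc39a11 (r = 0.985, -0.16), Kdm1a (r = 0.984, -0.20) and Alg14 (r = 0.983, -0.11). For Npy5r they were Hebp1, Ggct, Oxld1, Bud23 and Arhgef10l, with r from 0.977 to 0.988 and differences of 0.02 to 0.03, and the genes nearest to the 3 members were all different.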

How the data were processed

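Total RNA of the stellate ganglia of 3 sham and 3 TAC mice was hybridised to 6 arrays. The authors deposited 1 table of probe set intensities on a linear scale, made with GCRMA per the submitters' processing notes; no version or parameters were at hand. Of 45101 probe sets, 64 controls were left out here, and log2 was taken with no pseudocount. The 17550 probe sets with a mean log2 of at least 4 were tested with limma 3.58.1 in R 4.3.3 (lmFit and eBayes, two-sided, Benjamini-Hochberg adjustment over all of them, threshold 0.05), a procedure tested on simulated data. GCRMA compresses values near background, which understates changes of dim genes. The number of arrays limits the precision. Single values were also compared by exact permutation over arrays.

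Symbols came from GEO's platform annotation, and upstream sequences from a RefSeq table of GRCm38.p6, which held all 5 genes. Of a gene's probe sets the brightest stands for it. The members, the 7 pathway lists and the 13 marker lists were chosen with earlier results of these data known. Named by rule were all members, every other family gene on the array and the 5 genes most alike to a member. The 4 genes of smallest p per pathway list were also named by rule. Other genes of these lists and genes of the marker lists were named after their values were seen. Replicates are animals, since each array carries the RNA of a single mouse per the labels' protocols.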

Additional observations from a re-analysis of the deposited data

How the results depend on the processing

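The Npy difference was positive in all 16 alternatives, at 0.685 to 0.841, with limma adjusted p from 0.238 to 0.824, and no member was called in any. Its sign was largely fixed in advance. A changed floor, the trended, robust fit and the letter block cannot move a mean difference, and Npy has only 1 probe set to average. Leaving arrays out cannot turn the sign either, since every TAC array lay above every sham array. Npy1r was lower in all 14 alternatives that tested it, at -0.472 to -0.205. Both shifts of Npy against neuronal lists kept their direction in all 14 alternatives run for them. Array weights and a trended, robust fit were not run for these shifts. This count too was largely fixed in advance. Median centring cancels in such a shift, and dropping the floor or adding the letter block left both shifts unchanged. With groups that do not overlap, leaving out an array cannot turn the direction. A floor of 6 and the mean of a gene's probe sets gave no value for either receptor. Npy5r turned in sign in 4 of 14: -0.0320 with quantile normalization, -0.00585 with median centring, -0.00305 with array weights and -0.127 without TAC A (0.140 at most with 1 array left out). Probe sets called numbered 0 to 1 with 1 array left out, the 1 being Mir670hg without TAC B and Sst without TAC C. Added after the data were seen, list medians without TAC B turned to 0.00148 for the receptor effectors and 0.0403 for sympathetic neuron markers, and, leaving out sham C and TAC B together, to 0.000448 and 0.0520. Calcrl ran from -0.0397 to 0.632 with 1 array left out; no other gene named for its small p in a pathway list turned in sign, and list counts without Qpct, Dpp6 and Dpp10, or Sst were also added then. The cause of these changes was not tested. With the title letter as a replicate block, the Npy difference was 0.766 with adjusted p = 0.602, and 0 probe sets were called. The letters were not taken as pairs, since deviations of same-lettered arrays correlated at 0.0841, -0.00308 and -0.166. Signal near background limits what can be read from Npy2r and Dpp4.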
